A study of Mus musculus with 24 samples.

Results

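Krt7, Krt8, Krt18, Krt19 and Krt20, keratins of simple epithelia, and Sprr1a, Sprr2f and Sprr2g, small proline-rich genes of squamous epithelia, were followed in liver and kidney of C57BL/6 mice given cisplatin, CBLB502 or both. They are 8 of the 33272 genes in the table, 5 keratins and 3 small proline-rich genes, and were taken by symbol. They were chosen by their counts in these same 24 libraries, so their levels and differences are given as a description. How many of them passed a threshold in the main test is stated beside the share of all genes that did. Such counts from other tools and settings are printed without that share, and nothing is read from them. In kidney, 2 of the 3 cisplatin libraries carried Krt20 at 1098 and 1564 CPM (counts scaled to a common library size), against 0.5074 to 0.656 in control and 6.217 to 12.9 in the combination. Sprr2f, Sprr2g and Krt8 were highest in the same 2 libraries, while Krt7 and Krt19 in cisplatin overlapped control and Sprr1a lay below it. In liver, Krt8 and Krt18 ranged from 22.81 to 519.2 CPM, and none of the other 6 genes exceeded 1.767 CPM in a library.

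Each tissue had 4 groups of 3 libraries. Control mice had no treatment, and no time is given for them. The other groups received 0.2 mg/kg CBLB502, 20 mg/kg cisplatin, or both agents with CBLB502 30 min ahead (the combination), all into the peritoneum, and organs were taken at 72 h. Cisplatin is a platinum drug that crosslinks DNA and injures kidney tubules, and CBLB502 is a flagellin derivative that activates the receptor TLR5. No age, sex or transgene is given in the labels, and nothing says that the libraries of a group came from separate mice. RNA came from whole organs, so fewer cells of a type and less RNA per cell cannot be told apart.

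Keratins build the intermediate filaments of epithelial cells. Each filament pairs a type II chain, here Krt7 or Krt8, with a type I chain, here Krt18, Krt19 or Krt20. Krt8 with Krt18 is the pair of hepatocytes and of many kidney tubule cells, Krt7 and Krt19 mark duct epithelia such as bile duct and collecting duct as well as urothelium, and Krt20 is known from gut lining, urothelial surface cells and injured tubules. Small proline-rich proteins are substrates of transglutaminases, which crosslink them into the cornified envelope below the membrane of squamous cells, and they are also induced in other epithelia under stress.

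Levels are CPM on library sizes scaled by TMM (trimmed mean of M-values) within a tissue, and levels per length are CPM per kilobase of annotated exon. Log2 fold changes carry an approximate SE from edgeR's quasi-likelihood fit to the 12 libraries of a tissue. It is the size of the change divided by the square root of the test's F statistic. A gene is said to be called when its Benjamini-Hochberg adjusted p was under 0.05. Control libraries held 52.85 to 55.23 M counts in kidney and 40.58 to 42.62 M in liver, of which mitochondrial genes and their nuclear copies took 80.8% to 90.8% and 89.1% to 93.2%. Treated libraries held 54.09 to 77.1 M counts in kidney and 53.53 to 77.54 M in liver, with 8.66% to 18.6% and 3.44% to 9.21%. Every difference from control therefore carries a change of RNA make-up that cannot be told apart from treatment. CBLB502 and cisplatin libraries differed too, without overlap, at 17.53% to 18.65% against 8.658% to 13.76% in kidney. In liver the shares were 8.701% to 9.206% against 3.438% to 7.327%. Differences between these 2 groups thus carry a smaller change of the same kind. Against TMM, library sizes without mitochondrial genes and copies moved the median log2 fold change of all genes by -0.74 for cisplatin against control, -0.22 for CBLB502 against control, -0.68 for the combination against control and -0.5 for cisplatin against CBLB502 in kidney. The share of calls that were higher went from 61.3%, 59.5%, 58.8% and 64.4% to 22.1%, 35.7%, 21.6% and 27.8% in the same order. In liver the shift was -1.24, -0.61, -0.96 and -0.65, and the share of higher calls went from 59.4%, 65.9%, 59.2% and 61.4% to 14.4%, 27.6%, 17.9% and 12.8%. Kidney cisplatin library 6 lay nearer to the combination (0.97 log2 CPM, root mean square over genes) than to the other cisplatin libraries (1.5), and liver cisplatin library 3 did so too (1.23 against 1.67). Results that rest on either are given with and without it.

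The 5 keratins lie in the 2 keratin gene clusters of the mouse genome (coordinates of the deposited table, which match GRCm38). Krt7 (chr15:101411043-101430313, plus strand), Krt8 (chr15:101996698-102004482, minus strand) and Krt18 (chr15:102028180-102032027, plus strand) share chromosome 15, where Krt18 is a type I gene among type II genes. Krt19 (chr11:100140810-100146120) and Krt20 (chr11:99428403-99438150) are on the minus strand of chromosome 11. Sprr2f (chr3:92365187-92366442, plus strand), Sprr2g (chr3:92373915-92375229, plus strand) and Sprr1a (chr3:92483952-92485895, minus strand) lie in the epidermal differentiation complex of chromosome 3. Sprr2g is annotated as a polymorphic pseudogene, next to Sprr2f, and their transcripts are 73% identical. Words of 50 bases were searched only in transcripts of genes with Krt or Sprr symbols and of Gm9774. Among these, no word of Sprr2g occurs in another gene, and 4 of the 560 words of Sprr2f occur in Sprr2e. Transcripts of all other genes were not searched. Of the words of Krt8, 26.9% also occur in the pseudogene Krt8-ps, whose own counts were 0% to 3.03% of those of Krt8. Krt7 overlaps the antisense gene Gm671 and Krt8 overlaps Gm36026 on the opposite strand, and the strand setting of the counting is not given in the sources used here.

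Promoters are shown for Krt20, Sprr1a and Sprr2f, the 3 of these genes with a TATA box, because 2 of them also carry the letters of AP-1, whose genes are described further on. The windows are the 250 bases before the RefSeq start in GRCm38.p6, 5' to 3' on the gene's strand, from chr11:99438154-99438403 (minus strand) for Krt20, chr3:92485882-92486131 (minus strand) for Sprr1a and chr3:92364937-92365186 (plus strand) for Sprr2f. Capitals mark the TATA box (TATAAA, searched on both strands) and the binding motif of AP-1, the Fos and Jun family of factors (TGANTCA, which reads the same on both strands).
Krt20: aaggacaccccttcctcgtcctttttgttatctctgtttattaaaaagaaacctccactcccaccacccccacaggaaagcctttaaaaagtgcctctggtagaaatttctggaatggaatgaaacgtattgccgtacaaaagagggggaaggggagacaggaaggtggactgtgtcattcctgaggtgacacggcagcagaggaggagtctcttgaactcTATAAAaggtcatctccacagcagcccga
Sprr1a: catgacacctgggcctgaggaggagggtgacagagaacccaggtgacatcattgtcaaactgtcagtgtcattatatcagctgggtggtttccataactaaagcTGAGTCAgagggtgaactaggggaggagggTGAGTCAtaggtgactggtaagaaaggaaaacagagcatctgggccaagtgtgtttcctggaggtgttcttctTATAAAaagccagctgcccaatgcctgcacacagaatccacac
Sprr2f: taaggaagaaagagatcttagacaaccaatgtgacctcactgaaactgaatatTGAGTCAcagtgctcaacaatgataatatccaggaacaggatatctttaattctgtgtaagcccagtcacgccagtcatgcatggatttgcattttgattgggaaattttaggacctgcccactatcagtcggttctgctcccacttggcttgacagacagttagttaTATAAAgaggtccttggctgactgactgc

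RefSeq promoters were found for 6 of the 8 genes, and those of Krt19 and Sprr2g are not shown. AP-1 letters occurred in 2 of the 6, Sprr1a (bases -146 to -140 and -116 to -110 from the start) and Sprr2f (-197 to -191), against 6.75% of 32851 promoter windows of the same length. A TATA box occurred in Krt20 (-29 to -24), Sprr1a (-43 to -38) and Sprr2f (-29 to -24), against 12.4% of all windows. Krt18 carried a match to the motif of NF-kB, a factor that TLR5 activates, at -47 to -38, as did 17.6% of all windows. Krt7 and Krt8 held neither AP-1 letters nor a TATA box, and the 6 windows held no STAT motif (7.02% of all windows). Such matches describe letters in the window, not a bound site.

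Among the type II keratins, Krt8 in kidney had 30.7, 47.03 and 39.07 CPM in control libraries 1, 2 and 3 and 46.71, 51.18 and 54.59 CPM in CBLB502 libraries 4, 5 and 6. It had 532.1, 514.7 and 95.96 CPM in cisplatin libraries 4, 5 and 6, and 189.2, 183.8 and 167.9 CPM in combination libraries 4, 5 and 6. All treated groups with cisplatin lay above control and CBLB502 without overlap, and cisplatin library 6 lay below every combination library. Krt8 was 9.78-fold higher in cisplatin than in control (log2 fold change 3.29 ± 0.492 SE, n = 3 libraries a group), and 3.75 ± 0.171 without library 6. Against CBLB502, whose mitochondrial share lay far below control but above cisplatin, it was 7.49-fold higher (2.91 ± 0.482, and 3.36 ± 0.168 without library 6). The combination was 4.63-fold above control (2.21 ± 0.471) and 2.11-fold below cisplatin (-1.08 ± 0.454), a difference that was -1.54 ± 0.162 without library 6. With library sizes free of mitochondrial genes and copies, Krt8 differed from control by 2.48 in cisplatin and 1.53 in the combination, and cisplatin differed from CBLB502 by 2.32.

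Krt7, the type II keratin of duct epithelium, stayed within a narrow band in kidney: 67.85 to 88.36 CPM in control, 58.24 to 59.38 in CBLB502, 61.76 to 102.7 in cisplatin and 94.92 to 118.7 in the combination. CBLB502 lay below every other group without overlap, and the combination lay above control. The log2 difference was 0.16 ± 0.188 for cisplatin against control, -0.38 ± 0.189 for CBLB502 against control, 0.45 ± 0.189 for the combination against control and 0.83 ± 0.189 (1.77-fold) for the combination against CBLB502. With library sizes free of mitochondrial genes and copies, Krt7 turned to -0.55 for cisplatin and -0.22 for the combination against control, so its direction there rests on the scaling.

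Krt18, the type I partner of Krt8, had 18.27, 24.77 and 23.01 CPM in kidney control libraries 1, 2 and 3 and 7.168, 10.4 and 7.256 in CBLB502 libraries 4, 5 and 6. Cisplatin libraries 4 and 5 had 52.95 and 65.92 CPM and library 6 had 21.85, and the combination had 28.01 to 31.95. CBLB502 was the lowest group and did not overlap another, whereas cisplatin library 6 fell inside the control range. Krt18 was 2.66-fold lower in CBLB502 than in control (-1.41 ± 0.327) and 2.13-fold higher in cisplatin (1.09 ± 0.324, and 1.43 ± 0.19 without library 6). It was 5.67-fold higher in cisplatin than in CBLB502 (2.5 ± 0.336) and 1.55-fold lower in the combination than in cisplatin (-0.63 ± 0.318, and -0.97 ± 0.187 without library 6). With library sizes free of mitochondrial genes and copies, Krt18 differed from control by 0.31 in cisplatin and by -0.22 in the combination, which was 0.46 ± 0.321 under TMM. The lower level in CBLB502 turned to 0.82 ± 0.361 on log2(FPKM + 1), where FPKM is divided by all counts, mitochondrial ones included.

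Krt19, a type I keratin of ducts and progenitor cells, was low in kidney and varied within groups. Control libraries had 9.348 to 12.99 CPM, CBLB502 libraries 4, 5 and 6 had 1.958, 4.098 and 0.5351, cisplatin libraries 10.44, 17.77 and 4.412, and combination libraries 10.66, 8.181 and 5.385. Control, cisplatin and combination overlapped, and each of the 3 lay above CBLB502. Krt19 was 5.22-fold lower in CBLB502 than in control (-2.38 ± 0.643), 4.95-fold higher in cisplatin than in CBLB502 (2.31 ± 0.637) and differed from control by -0.08 ± 0.61 in cisplatin, less than the SE. The last 2 were 1.7 and -0.86 with library sizes free of mitochondrial genes and copies.

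Krt20 had the widest range of the 8 genes. Control libraries held 0.5074, 0.656 and 0.5715 CPM (6, 16 and 11 counts) and CBLB502 libraries 0.3757, 0.5057 and 0.1391 (38, 48 and 13 counts). Cisplatin libraries 4, 5 and 6 held 1564, 1098 and 4.739 CPM (144405, 96249 and 536 counts), and combination libraries 12.9, 6.217 and 11.31 CPM. Every library of the 2 groups with cisplatin lay above every library without it, and the third cisplatin library lay below all combination libraries. The ratio of means was 1540-fold for cisplatin against control (10.56 ± 1.69) and 2610-fold against CBLB502 (11.34 ± 1.69). Without library 6 the 2 remaining cisplatin libraries averaged 1331 ± 329 CPM (SD), and the log2 difference was 11.14 ± 0.508 from control and 11.92 ± 0.498 from CBLB502. The combination was 17.5-fold above control (4.1 ± 1.4) and 87.7-fold below the cisplatin mean (-6.45 ± 1.37, and -7.03 ± 0.405 without library 6). Under the other library sizes Krt20 differed from control by 9.72 in cisplatin and 3.43 in the combination, and cisplatin differed from CBLB502 by 10.7.

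**Figure D1:**
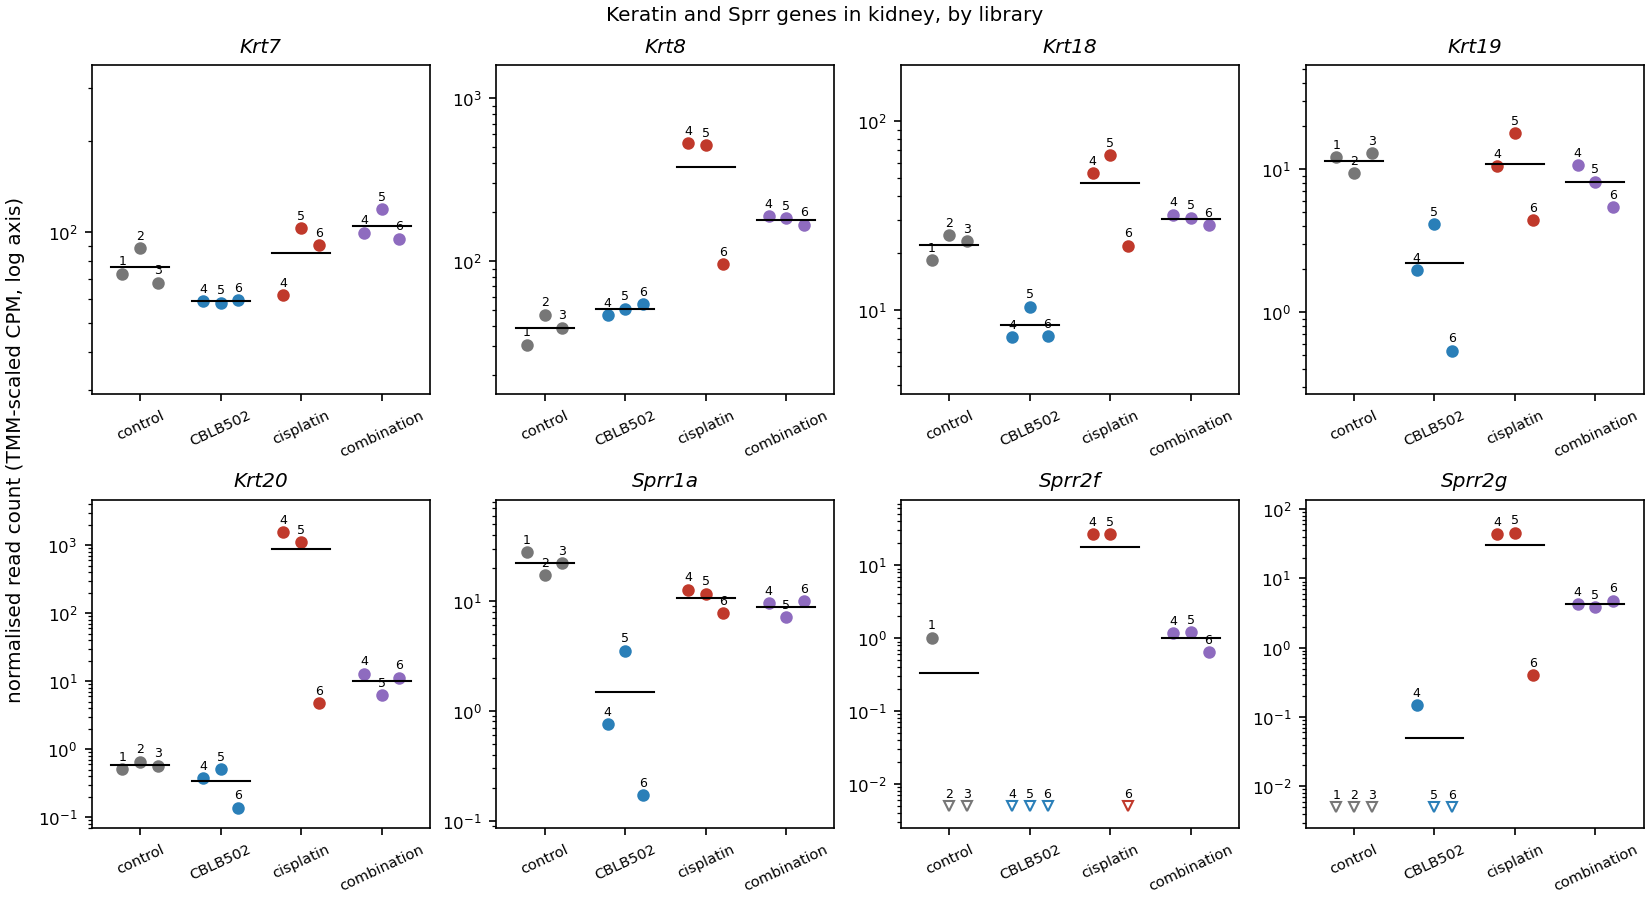
TMM-scaled CPM (log axis) of the 8 genes in the 12 kidney libraries, 1 panel a gene; points are libraries with their number, lines are group means, and open triangles mark libraries with 0 counts at an arbitrary height. Krt20 spans 0.1391 to 1564 CPM, and cisplatin library 6 sits apart from cisplatin libraries 4 and 5 for Krt8, Krt18, Krt20, Sprr2f and Sprr2g.

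Sprr1a, a cornified envelope precursor, lay lower in kidney cisplatin than in control, but higher than in CBLB502. Control libraries 1, 2 and 3 held 28.08, 17.18 and 22.03 CPM, CBLB502 libraries 4, 5 and 6 held 0.7514, 3.54 and 0.1712, cisplatin libraries 12.7, 11.71 and 7.746, and combination libraries 9.59, 7.163 and 9.955. Control was the highest group and CBLB502 the lowest, neither overlapping another, and cisplatin library 6 was close to its group. Sprr1a was 15.1-fold lower in CBLB502 than in control (-3.91 ± 0.774), 2.09-fold lower in cisplatin (-1.06 ± 0.693) and 2.52-fold lower in the combination (-1.33 ± 0.697). It was 7.21-fold higher in cisplatin than in CBLB502 (2.85 ± 0.738) and 5.99-fold higher in the combination than in CBLB502 (2.58 ± 0.731). Under the other library sizes Sprr1a differed from control by -1.81 in cisplatin and -2 in the combination.

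Sprr2f, a small proline-rich gene known from uterine epithelium, gave 12 counts in control library 1 and 0 in control libraries 2 and 3 and in all CBLB502 libraries. Cisplatin libraries 4, 5 and 6 gave 2454, 2323 and 0 counts (26.57, 26.5 and 0 CPM), and combination libraries 113, 118 and 67 counts (1.182, 1.201 and 0.6432 CPM). Cisplatin libraries 4 and 5 thus lay close together, and library 6 gave no count of a gene that every combination library held. Cisplatin was 52.3-fold above control (6.07 ± 2.1, 6.76 ± 0.975 without library 6, and 5.21 under the other library sizes) and at least 1710-fold above CBLB502, taking 3 counts over the CBLB502 group as its limit. The combination overlapped control (1.94 ± 2.01). It was at least 97.3-fold above CBLB502 and 17.5-fold below the cisplatin mean (-4.13 ± 1.74, and -4.71 ± 0.784 without library 6).

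Sprr2g gave no count in kidney control, 15 counts in CBLB502 library 4 and none in CBLB502 libraries 5 and 6. It gave 4013, 4022 and 45 counts in cisplatin libraries 4, 5 and 6 (43.46, 45.89 and 0.3979 CPM) and 405, 375 and 498 counts in the combination (4.236, 3.816 and 4.781 CPM). As for Sprr2f, cisplatin library 6 lay below the combination. The combination did not overlap the groups without cisplatin, whereas for Sprr2f it overlapped control. Cisplatin was at least 553-fold above control and 605-fold above CBLB502 (9.15 ± 1.76, 9.72 ± 0.774 without library 6, and 8.53 under the other library sizes). The combination was at least 79.1-fold above control, 86.5-fold above CBLB502 (6.35 ± 1.62) and 6.99-fold below the cisplatin mean (-2.81 ± 1.24, and -3.38 ± 0.551 without library 6). Such limits and the counts behind them cover counting error only.

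**Figure D2:**
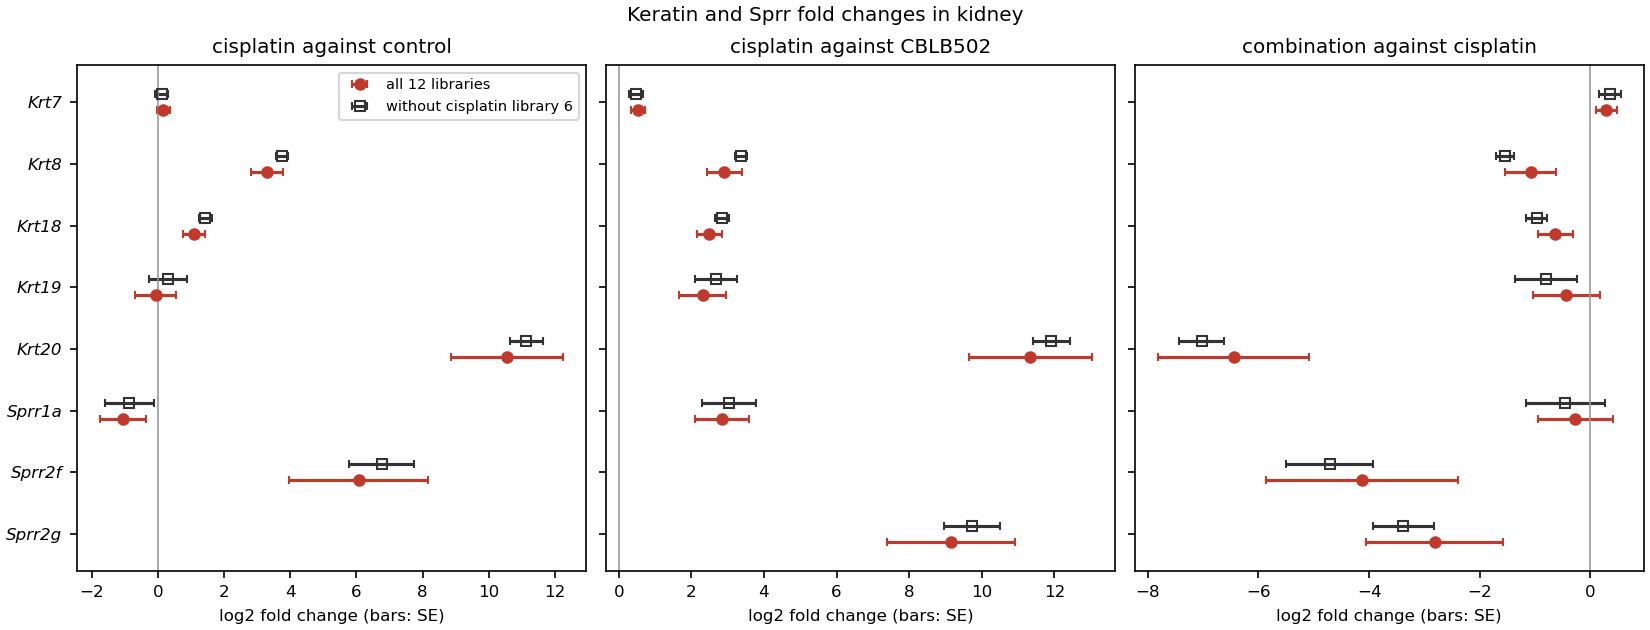
Log2 fold changes of the 8 genes in kidney for 3 comparisons, with SE bars; red points use all 12 libraries and open black squares leave out cisplatin library 6. A gene with no count in a whole group has no point in that panel (Sprr2g against control, Sprr2f against CBLB502); leaving out library 6 shortened the bars of Krt8, Krt18, Krt20, Sprr2f and Sprr2g.

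With all 12 kidney libraries, 5 of the 8 genes were called higher in cisplatin than in control, where 24.1% of all genes were, and 7 were called higher in cisplatin than in CBLB502 (18.5% of all genes). In the combination 3 were called higher than in control (21.5% of all genes) and 7 higher than in CBLB502 (14.9% of all genes). CBLB502 against control called 3 lower, Krt18, Krt19 and Sprr1a (7.77% of all genes). Since these values chose the genes, nothing is read from such counts. In the combination against cisplatin, edgeR's quasi-likelihood test called none of the 8 (4 at an unadjusted p under 0.05, 1 with DESeq2 and 0 with limma-voom), where 0.00492% of all genes were called higher and 0% lower. Without cisplatin library 6, 5 of the 8 were called lower in the combination (10.3% of all genes), 5 higher in cisplatin than in control (27.4% of all genes) and 7 higher in cisplatin than in CBLB502 (23.7% of all genes). These comparisons share their control, CBLB502 or cisplatin libraries.

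The interaction (combination minus cisplatin minus CBLB502 plus control, in log2) measures the departure of the combination from the sum of both single-agent differences. It also carries the change of RNA make-up between control and treated libraries, because a shift shared by all treated libraries does not cancel in it. In kidney it was -5.67 ± 1.86 for Krt20 and -1.46 ± 0.639 for Krt8, and -6.25 ± 0.605 and -1.92 ± 0.22 without cisplatin library 6. It had the opposite sign for Sprr1a (3.64 ± 1), Krt19 (1.95 ± 0.87), Krt18 (0.78 ± 0.452) and Krt7 (0.67 ± 0.266). Without library 6 these 4 were 3.45 ± 1.03, 1.57 ± 0.794, 0.44 ± 0.258 and 0.72 ± 0.266. All CBLB502 libraries lay below all control libraries for each of the 4, and for Krt20 as well.

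The make-up of the keratin pool followed these differences. Per length, Krt8 stood to Krt18 at 1.23, 1.39 and 1.25 to 1 in kidney control and at 3.22 to 7.38 to 1 in the 9 treated kidney libraries, with no overlap. In liver the ratio was 0.144 to 0.227 in control and 0.56 to 0.938 in treated libraries, again with no overlap. A ratio within a library does not depend on its scaling, but it can still carry the change of RNA make-up between control and treated libraries. That change falls along the same split, so it cannot be told apart from treatment here. Krt20 made up 71.5% and 63.1% of the summed level per length of the 5 keratins in kidney cisplatin libraries 4 and 5, but 3% in library 6, 2.31% to 4.6% in the combination and 0.173% to 0.595% in control and CBLB502. The ratio of type II to type I chains was therefore 0.329 and 0.444 in cisplatin libraries 4 and 5, 3.09 in library 6, 3.19 to 6.71 in the other treated libraries and 1.27 to 1.62 in control.

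**Figure D3:**
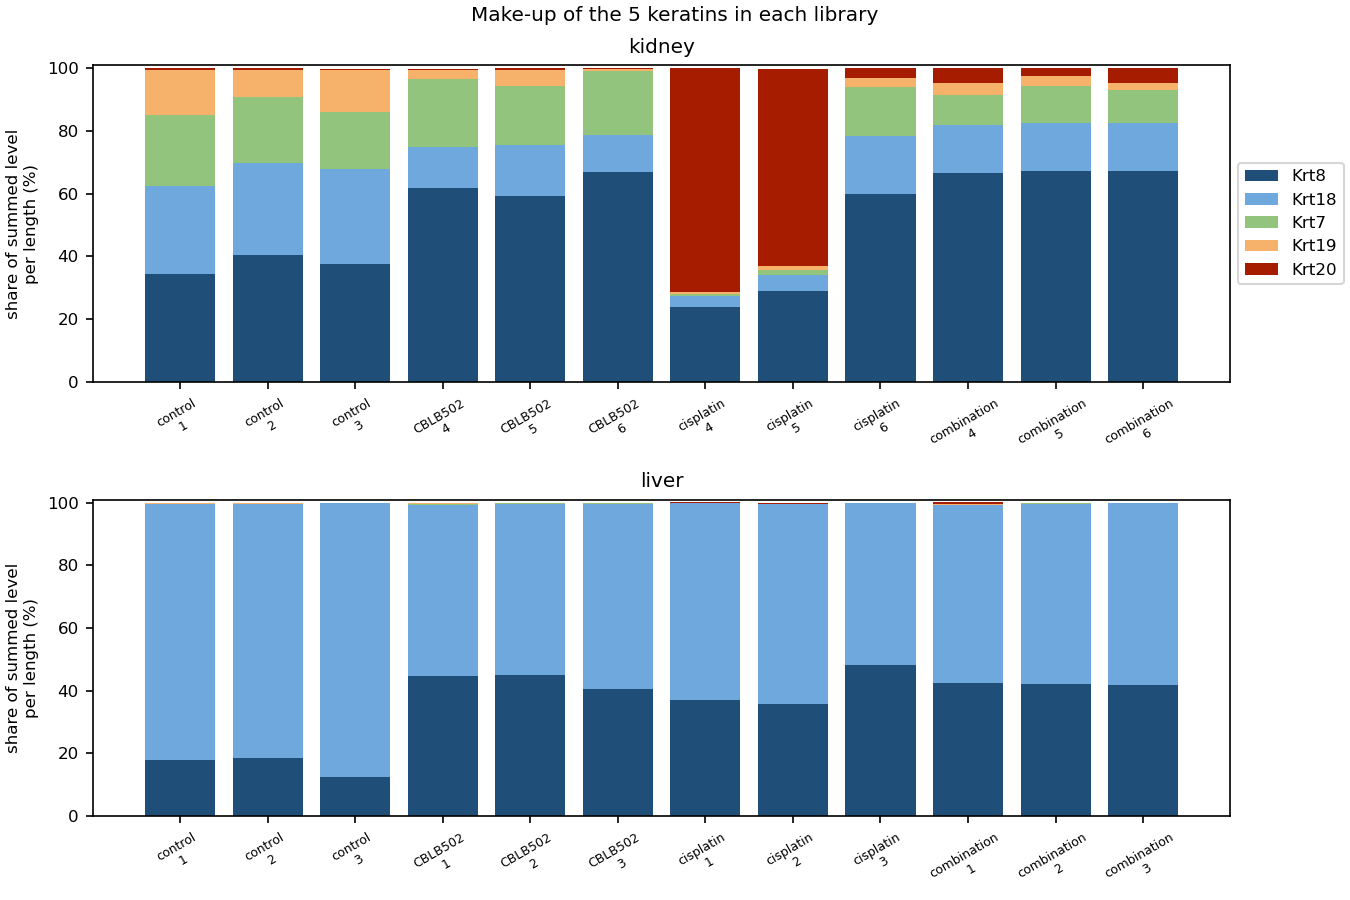
Share (%) of each keratin in the summed CPM per kilobase of Krt7, Krt8, Krt18, Krt19 and Krt20, with 1 stacked bar a library, kidney above and liver below. Krt20 fills 71.5% and 63.1% of the bars of kidney cisplatin libraries 4 and 5, and Krt8 and Krt18 fill nearly the whole bar in liver.

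In liver, Krt8 held 22.81, 56.81 and 23.95 CPM in control libraries 1, 2 and 3 and 95.87, 85.91 and 78.57 in CBLB502. Cisplatin libraries 1, 2 and 3 held 415.8, 218.7 and 85.25 CPM, and combination libraries 87.74, 88.12 and 95.37. Control lay below every treated group without overlap, and cisplatin library 3 fell inside the range of CBLB502. Krt8 was 6.95-fold above control in cisplatin (2.8 ± 0.515, and 3.22 ± 0.382 without library 3), 2.51-fold above it in CBLB502 (1.33 ± 0.491) and 2.62-fold above it in the combination (1.39 ± 0.491). With library sizes free of mitochondrial genes and copies these 3 differences were 1.53, 0.8 and 0.52. Cisplatin against CBLB502 gave 1.47 ± 0.49 (2.76-fold, 1.86 ± 0.368 without library 3, and 0.73 under the other library sizes), the combination against CBLB502 0.06 ± 0.481, and the interaction -2.74 ± 0.693.

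Krt18 held 75.91, 183.5 and 122.2 CPM in liver control and 76.42 to 86.4 in CBLB502. Cisplatin libraries 1, 2 and 3 held 519.2, 286.7 and 66.71 CPM, and the combination 85.78 to 96.69. Cisplatin libraries 1 and 2 were the highest and library 3 the lowest of all 12, so each pair of groups with cisplatin overlapped. Krt18 was 3.54-fold higher in cisplatin than in CBLB502 (1.82 ± 0.554, 2.28 ± 0.325 without library 3, and 1.07 under the other library sizes). Against control it was 2.29-fold higher (1.19 ± 0.545, and 1.69 ± 0.323 without library 3), but -0.1 with library sizes free of mitochondrial genes and copies.

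The other keratins and the Sprr genes were near the detection limit in liver. Krt7 and Krt19 reached at most 1.006 and 1.078 CPM in any liver library, with overlap between all groups. Krt20 had 119, 162 and 0 counts in cisplatin libraries 1, 2 and 3 (1.336, 1.767 and 0 CPM), 109, 0 and 4 in the combination, 2 in a single CBLB502 library and none in control. Its cisplatin mean was at least 11.3-fold above control, and cisplatin library 3, the lowest of its group in Krt8, gave no Krt20 count. Sprr1a, Sprr2f and Sprr2g passed no filter on low counts in liver; Sprr1a gave 0 to 17 counts a library, Sprr2f 0 to 4 and Sprr2g 0 to 6.

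**Figure D4:**
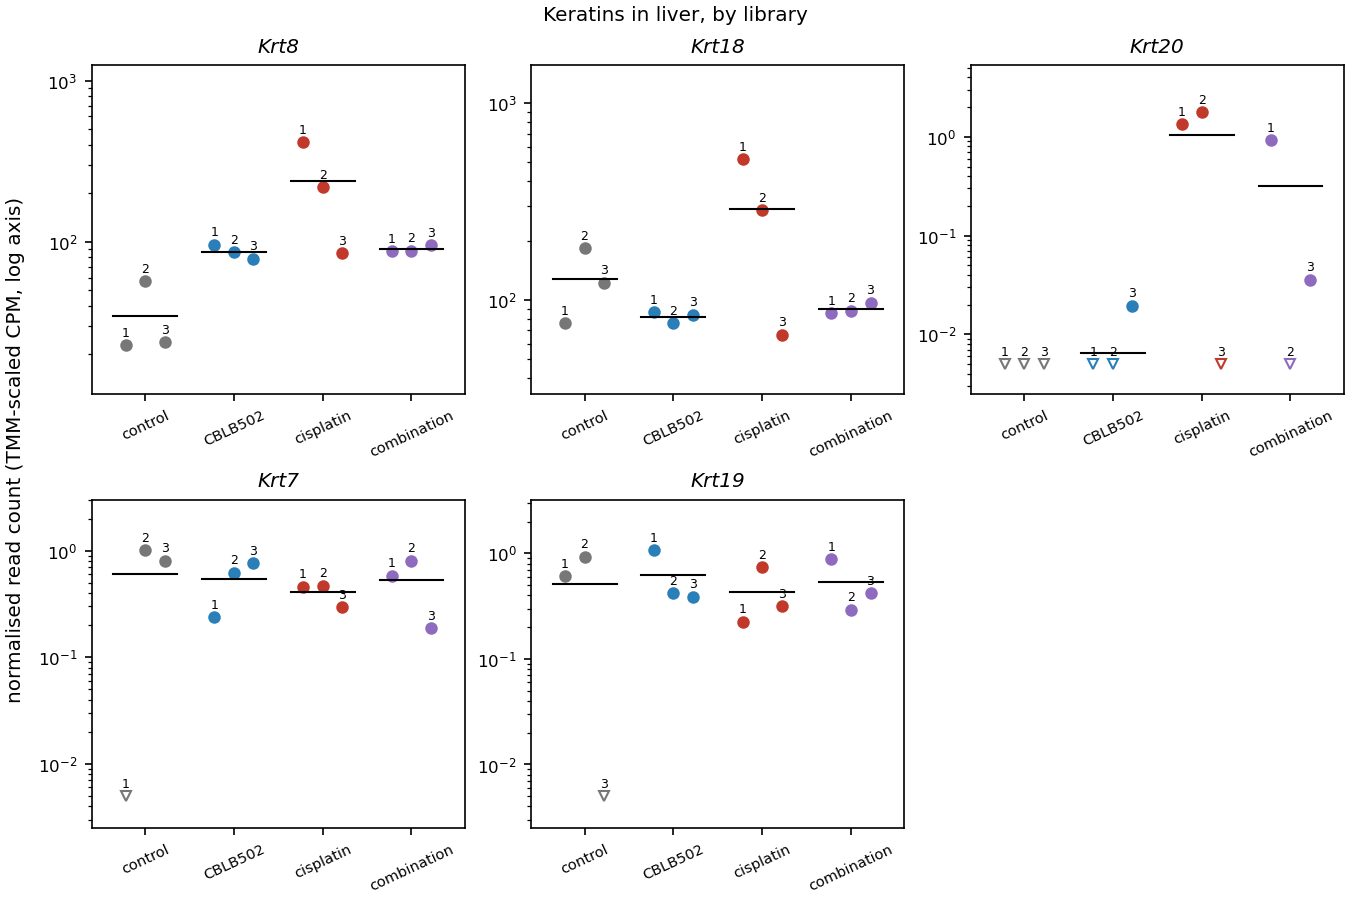
TMM-scaled CPM (log axis) of the 5 keratins in the 12 liver libraries; points are libraries with their number, lines are group means, and open triangles mark libraries with 0 counts at an arbitrary height. Krt8 ranges from 22.81 to 415.8 CPM, and cisplatin library 3 lies with the CBLB502 and combination libraries.

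Liver cisplatin against control called 1 of the 5 keratins tested, Krt8 (25.6% of all genes called higher), and the combination against control also called Krt8 alone (23.8% of all genes). Cisplatin against CBLB502 called none of the 5 with edgeR (3 at an unadjusted p under 0.05, 3 with DESeq2, 0 with limma-voom), where 7.7% of all genes were called higher. Without cisplatin library 3, when Sprr1a passed the filter too, 3 of 6 genes tested were called higher against control (26.1% of all genes), 3 against CBLB502 (14.1% of all genes), and 2 lower in the combination than in cisplatin (10.6% of all genes). As in kidney, nothing is read from these counts, because the same values chose the genes.

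On a common scale of all 24 libraries, each gene had its own order of groups, given per length. Krt8 ran from liver cisplatin (175.3 ± 121 CPM per kilobase, SD, n = 3) and kidney cisplatin (135.4 ± 86.7), which overlapped, through kidney combination (64.49 ± 4.24), liver combination (63.57 ± 2.58) and liver CBLB502 (62.41 ± 5.42), which did not differ beyond their spread. Below them came liver control (25.45 ± 14.7), kidney CBLB502 (19.47 ± 1.33) and kidney control (13.51 ± 3.04), where liver control overlapped both kidney groups. Krt18 was higher in every liver group than in any kidney group, from liver cisplatin (289.4 ± 225) down to liver CBLB502 (80.69 ± 5.04), followed by kidney cisplatin (22.79 ± 10.7) and last by kidney CBLB502 (4.33 ± 1.02). Krt7 was the reverse, with 6.264 ± 0.0512 to 10.36 ± 1.23 in the kidney groups and 0.08309 ± 0.0192 to 0.1245 ± 0.11 in liver. Krt20 in kidney cisplatin had the highest mean per length of any of these genes in any group, 320 ± 288, with libraries from 1.776 to 563.

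Kidney against liver in the same arm gave log2 differences of 5.84 ± 0.607 (control) to 6.68 ± 0.577 (cisplatin) for Krt7 and of -4.22 ± 0.535 (CBLB502) to -2.55 ± 0.496 (combination) for Krt18. For Krt8 they were -0.91 ± 0.501 in control, -1.68 ± 0.507 in CBLB502, -0.37 ± 0.494 in cisplatin and 0.02 ± 0.493 in the combination. The step from CBLB502 to cisplatin was larger in kidney than in liver by 2.72 ± 1.04 for Krt19, 1.31 ± 0.7 for Krt8, 0.83 ± 0.663 for Krt7 and 0.55 ± 0.664 for Krt18. The last 2 differences were close to their SE.

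The other members of both families gave little. Of 28 other keratin genes in the table, 5 reached 1 CPM in a kidney group (Krt5, Krt10, Krt15, Krt23 and Krt80) and none did so in liver. In kidney, Krt23 was higher in cisplatin than in CBLB502 (log2 fold change 1.57 ± 0.509, adjusted p = 0.0383 in edgeR's quasi-likelihood test) and Krt80 was lower (-1.3 ± 0.399, adjusted p = 0.0308). Krt10, an epidermal type I keratin, was higher in the combination than in control (1.07 ± 0.32, adjusted p = 0.0215). Of 7 other Sprr genes, Sprr2a1, Sprr2a2 and Sprr2a3 reached 1 CPM in kidney. Of the words of Sprr2a1, 96.3% occur in another gene, so reads of these copies may be split. Sprr2a1 had 2.622, 5.453 and 9.455 CPM in control libraries 1, 2 and 3 and 0.7811, 4.045 and 0.3317 in CBLB502 libraries 4, 5 and 6, so these groups overlapped. It was lower in the combination than in control (-2.37 ± 0.862, adjusted p = 0.0492 in edgeR's test).

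Genes that act with keratins and Sprr proteins were taken from lists, which like the 8 genes were drawn up with earlier results known. Of the 24 genes of the cornified envelope and squamous list in the table, 17 were tested in kidney, and 10 rose and none fell in cisplatin against CBLB502 (median log2 fold change 2.03, against -0.05 over all genes, of which 18.5% were called higher and 10.2% lower). Tgm1, the transglutaminase that crosslinks Sprr proteins, had 11.54, 19.33 and 14.13 CPM in CBLB502 and 927, 694.1 and 29.47 in cisplatin libraries 4, 5 and 6 (5.2 ± 0.919, adjusted p = 0.00201). The tight junction gene Cldn4 (4.69 ± 0.68, adjusted p = 0.000828), the 14-3-3 gene Sfn (4.63 ± 0.738, adjusted p = 0.00122) and S100a10, a partner of annexin A2 (4.44 ± 0.6, adjusted p = 0.000613) rose too in edgeR's quasi-likelihood test. The envelope genes Ivl and Lor averaged 0.2285 and 0.1585 CPM in cisplatin and did not pass edgeR's test (adjusted p = 0.78 and 0.713), and Flg gave no count there. Against control, 7 of the 17 rose and 2 fell (median 0.68, against 0.06 over all genes, of which 15.2% were called lower).

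Of the 16 desmosome, plakin and related keratin partner genes, 5 rose and 1 fell in cisplatin against CBLB502 (median 0.01, against -0.05 over all genes, of which 18.5% were called higher and 10.2% lower). The desmosomal plaque gene Pkp2 (2.02 ± 0.366, adjusted p = 0.00229), the plakin-family gene Eppk1 (2.1 ± 0.554, adjusted p = 0.0162), Perp (1.23 ± 0.275, adjusted p = 0.00684) and the tight junction gene Cldn1 (1.03 ± 0.263, adjusted p = 0.0135) rose in edgeR's test. Desmoplakin (Dsp), which ties keratin filaments to desmosomes, did not pass it (-0.44 ± 0.289, adjusted p = 0.277). Of 8 other intermediate filament genes, 1 rose, the nuclear lamin gene Lmna (1.9 ± 0.345, adjusted p = 0.00231), and Vim, the filament gene of mesenchymal cells, did not pass the test (-0.73 ± 0.402, adjusted p = 0.193).

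AP-1 genes were higher in the same libraries. Of 10 listed, 9 rose and none fell in cisplatin against CBLB502 (median 4.08, against -0.05 over all genes, of which 18.5% were called higher and 10.2% lower). Against control, 6 rose and 1 fell (median 1.95, with 24.1% of all genes called higher and 15.2% lower). CBLB502 against control had 4 lower and none higher (median -1.65, with 7.77% of all genes called lower). The list summed to 204 to 241.6 CPM in control and 918.7, 713.7 and 137.7 in cisplatin libraries 4, 5 and 6. Fosl1, an AP-1 subunit of squamous and injured epithelia, gave no count in control or CBLB502 and had 29.41, 11.84 and 0.02653 CPM in cisplatin libraries 4, 5 and 6, at least 1330-fold above CBLB502 (adjusted p = 0.0112). Atf3 (6.83 ± 1.03, adjusted p = 0.00097), Maff (6.05 ± 0.812, adjusted p = 0.000604) and Fos (5.26 ± 0.603, adjusted p = 0.000455) rose as well in edgeR's test. Fos had 30.24 to 44.53 CPM in control, above every treated library, and 0.2996 to 0.4635 in CBLB502. Of 17 epithelial and squamous transcription factors (median 0.51, with 18.5% of all genes called higher and 10.2% lower) 7 rose, among them Sox9 (5.48 ± 1.15, adjusted p = 0.00515), Klf6 (4.63 ± 0.777, adjusted p = 0.00153) and Cebpb (3.71 ± 0.525, adjusted p = 0.000758), and 1 fell, Hnf4a (-0.85 ± 0.289, adjusted p = 0.0461). Trp63, the master factor of squamous cells, had 0.3777 CPM on average in cisplatin against 0.4628 in CBLB502 (-0.29 ± 0.712, adjusted p = 0.793).

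Of 20 tubule injury genes, 13 rose and none fell in cisplatin against CBLB502 (median 1.77, against -0.05 over all genes, of which 18.5% were called higher and 10.2% lower). Against control, 13 rose and 4 fell (median 1.84, against 0.06 over all genes, of which 24.1% were called higher and 15.2% lower). Lcn2 had 1166, 1235 and 42.89 CPM in cisplatin libraries 4, 5 and 6 (8.64 ± 1.16, adjusted p = 0.000604), and Havcr1, the tubule injury marker KIM-1, had 294.1, 184.4 and 8.25 (7.7 ± 1.03, adjusted p = 0.000598). In each of these genes library 6 was the lowest cisplatin library, as for Krt8 and Krt20. For Havcr1 library 6 lay above the combination (3.148 to 4.569 CPM), and for Krt8, Krt20, Tgm1, Cldn4 and Lcn2 below it.

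**Figure D5:**
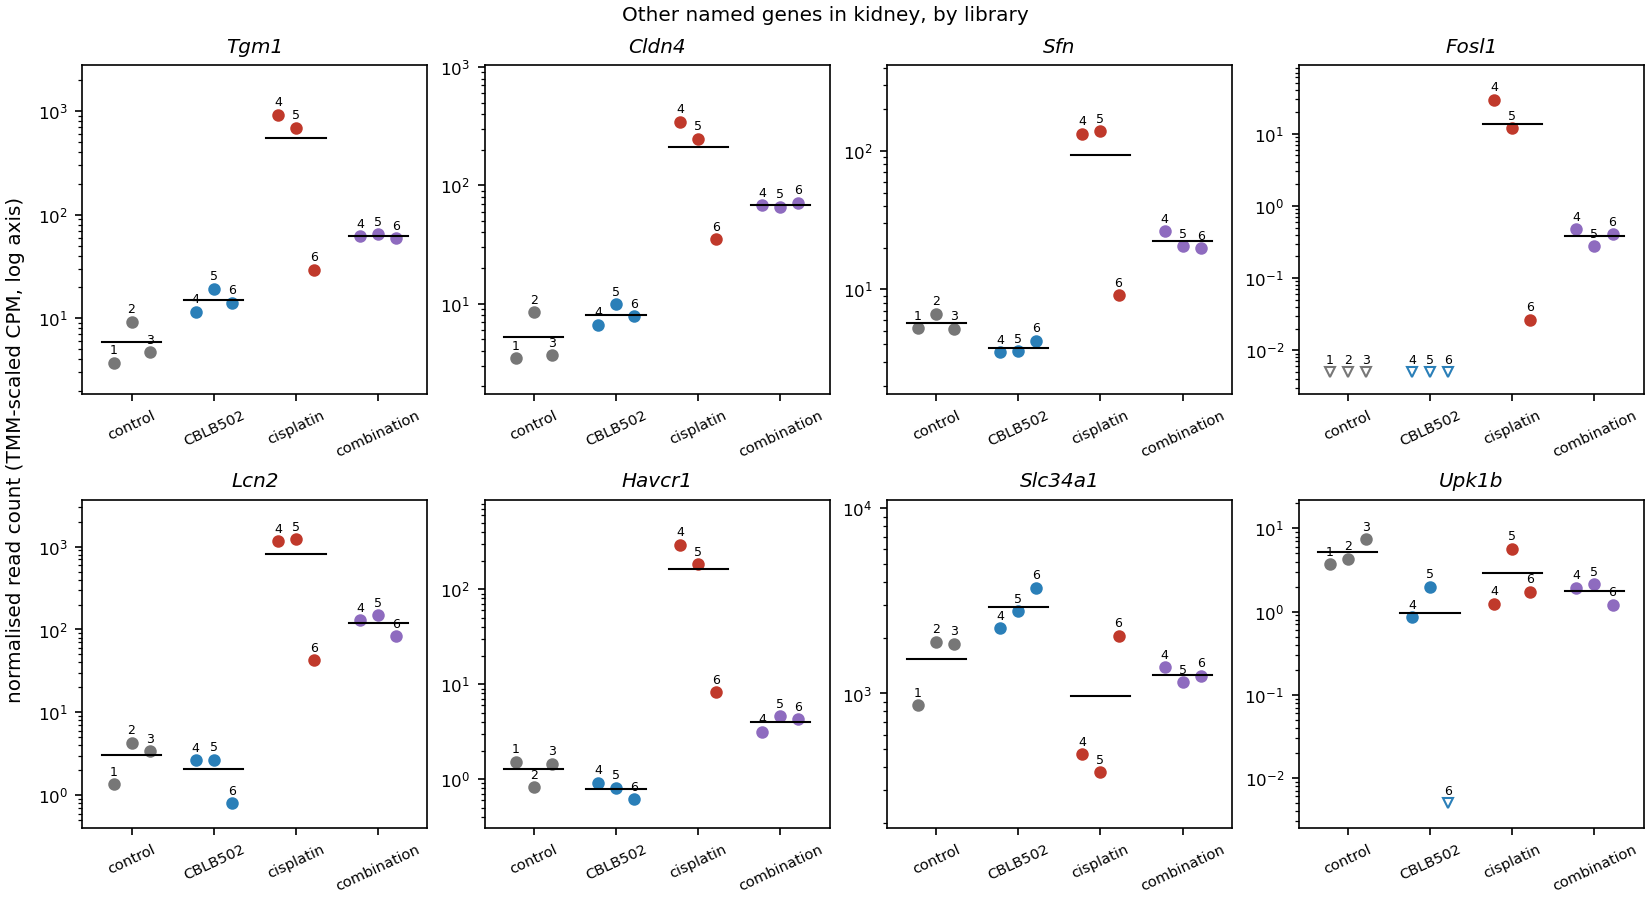
TMM-scaled CPM (log axis) of 8 other named genes in the 12 kidney libraries; points are libraries with their number, lines are group means, and open triangles mark 0 counts at an arbitrary height. Tgm1, Cldn4, Sfn, Fosl1, Lcn2 and Havcr1 are highest in cisplatin libraries 4 and 5, Slc34a1 is lowest there, and Upk1b is at 0 in CBLB502 library 6.

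The combination against CBLB502, which leaves out the cisplatin group, had 8 of 17 cornified envelope and squamous genes and 6 of 10 AP-1 genes higher and none lower (medians 1.5 and 2.45, against -0.02 over all genes, of which 14.9% were called higher and 8.98% lower). Between the combination and cisplatin, edgeR called none of the 164 list genes tested in kidney (40 at an unadjusted p under 0.05, 22 with DESeq2, 0 with limma-voom). Library 6 was set apart for lying near the combination, so leaving it out favours a lower combination by construction, and the values without it are a description. Without it, 7 of 18 cornified envelope and squamous genes, 8 of 10 AP-1 genes and 10 of 20 tubule injury genes passed the threshold as lower and none as higher (medians -0.95, -1.89 and -0.96, against 0.07 over all genes, of which 10.3% were called lower). With all 12 libraries Tgm1 differed by -3.15 ± 0.834 (adjusted p = 0.229 in edgeR's test) and Sfn by -2.08 ± 0.658 (adjusted p = 0.257), and without library 6 by -3.71 ± 0.312 and -2.61 ± 0.161.

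Cell type markers moved with some of these values. Urothelium lines the renal pelvis and expresses Krt7, Krt19, Krt20 and Sprr genes. Its 10 markers summed to 24.19 to 40.63 CPM in control, 8.433 to 24.5 in CBLB502, 19.88 to 35.49 in cisplatin and 13.37 to 23.82 in the combination. Of the 10, 1 rose in cisplatin against CBLB502, Gprc5a (1.97 ± 0.437, adjusted p = 0.00668 in edgeR's test), and none fell. Over all genes, 18.5% were called higher and 10.2% lower there. In CBLB502 library 6, which had the lowest Krt19, Krt20 and Sprr1a, 5 of the 10 markers were detected. Upk1b, Upk2, Upk3a, Krt5 and Psca were at 0 there. Library 5, the highest of the CBLB502 group in Krt19, Krt20 and Sprr1a, had the highest urothelial sum of that group. In each other group Krt19 was also highest where the sum was highest, but Sprr1a was highest where the sum was lowest. Cisplatin library 4 had the lowest sum of its group (19.88 CPM) but the highest Krt20 (1564 CPM) and Sprr1a (12.7 CPM). The part of urothelium in the levels of Krt19, Krt20 and Sprr1a was not tested.

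Collecting duct markers, 12 genes with Aqp2, summed to 165.8 to 601 CPM in control, 372.2 to 459.4 in CBLB502, 286.4 to 640.7 in cisplatin and 579.5 to 726.7 in the combination, and none of the 12 was called in cisplatin against CBLB502 (edgeR). The 9 proximal tubule markers summed to 2741 to 5404 CPM in control, 7073 to 10080 in CBLB502, 3378 and 2268 in cisplatin libraries 4 and 5, 7064 in library 6 and 5278 to 5832 in the combination. Of these 9, 1 fell against CBLB502 with all libraries (Lrp2, -1.58 ± 0.461, adjusted p = 0.0247 in edgeR's test). Over all genes in this comparison, 10.2% were called lower and 18.5% higher. Without library 6, 7 of the 9 fell. Library 6 was set apart for lying near the combination, so that count is a description only. The 8 thick limb and distal markers summed to 653.1 to 863.5 CPM in control, 2777 to 4124 in CBLB502 and 933.5, 811.2 and 2369 in cisplatin, and 4 of the 8 fell against CBLB502. Cisplatin libraries 4 and 5 thus had the lowest sums of proximal and of thick limb and distal markers among the 9 treated libraries, but near or within the control range. For collecting duct markers this did not hold, as library 5 (505.9 CPM) lay above every CBLB502 library. The part of these cell types in the higher keratin shares was not tested. In the same kidney comparison the bile duct list, which holds the injury genes Sox9 and Spp1, had 5 of 12 higher and 1 lower, the hepatocyte list 3 of 9 higher, the neutrophil list 2 of 5 higher, the mesothelium list 1 of 5 lower and the epidermis list none of 6, and no pancreas marker was tested (medians 0.72, 0.9, 3.53, -0.83 and 0.14). Neutrophil markers summed to 6.627, 27.96 and 1.176 CPM in cisplatin and 1.148 to 1.374 in CBLB502, and their part was not tested. In liver the 12 bile duct markers summed to 26.33 to 37.27 CPM in CBLB502 and to 77.68, 89.8 and 23.64 in cisplatin, Epcam stayed at 0 to 2.029 CPM in all 12 liver libraries, and none of the 10 tested was called in cisplatin against CBLB502. Liver neutrophil markers summed to 8.824 to 13.99 CPM in control, 2.076 to 3.09 in CBLB502 and 29.59, 40.59 and 2.27 in cisplatin (2 of 6 rose against CBLB502, with 7.7% of all genes called higher). The 9 hepatocyte markers summed to 15470 to 29650 CPM in control, 55190 to 67810 in CBLB502 and 152300, 148500 and 76910 in cisplatin (3 of 9 rose). Both sums were highest in cisplatin libraries 1 and 2, as were Krt8 and Krt18, and their part was not tested.

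In liver cisplatin against CBLB502, where 7.7% of all genes were called higher and 4.84% lower, 2 of 13 cornified envelope and squamous genes rose and 1 fell (median 0.87, against -0.06 over all genes), 5 of 9 AP-1 genes rose (median 2.89), and 3 of 20 tubule injury genes rose and 1 fell (median 0.87). Tgm1 rose there as well (3.06 ± 0.696, adjusted p = 0.0163), with 106.5, 62.66 and 13.12 CPM in cisplatin libraries 1, 2 and 3. Cldn4 stayed at 0 to 0.4228 CPM in all liver libraries, and Fosl1 was seen in 1 library.

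The genes whose log2 CPM ran most like the mean standardised log2 CPM of the 8 genes over the 12 kidney libraries were Pheta1 (Pearson r = 0.9774), Fam25c (0.973), Junb (0.9668) and S100a10 (0.9668), of 13716 genes ranked. Over the 9 treated kidney libraries the first were Cldn7 (0.9948), Fgf18 (0.9923), Lcn2 (0.9917) and Pheta1 (0.991). Of the first 8 in each ranking 2 were shared, Pheta1 and Fam25c. Without cisplatin libraries 4 and 5, r was 0.977 for Pheta1 in the first ranking and 0.997 for Cldn7 in the second. These r describe libraries that share groups and scaling.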

How the data were processed

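RNA was extracted with Trizol from whole liver and kidney and made into libraries by Illumina's usual procedure, as the labels' protocols state. The authors deposited counts and FPKM per gene, with cutadapt 1.9 and FastQC named in the submitters' processing notes; aligner, counter, strand setting and genome build are not given in the sources used here. Of 33272 gene IDs, 33156 matched GENCODE vM21 (GRCm38), which gave exon lengths. Columns of treated kidney libraries carry numbers that match a group but no single sample, so they were used as replicates of the group, and 9 FPKM columns were not used; deposited FPKM served as an alternative in liver, and FPKM was recomputed from counts in kidney.

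Counts were tested per tissue in 1 fit of 12 libraries with edgeR 4.0.16 (quasi-likelihood, TMM, filterByExpr, Benjamini-Hochberg) under R 4.3.3. limma 3.58.1 and DESeq2 1.42.0 gave alternatives, and the fit was tested on simulated data. Since no label speaks of separate mice, adjusted p-values weigh a difference only against the variation among these libraries, possibly technical. The genes and lists were chosen with earlier results of these data known. Named were the 8 genes, called other keratin and Sprr genes of at least 1 CPM, up to 4 called genes of each list with the largest change, 10 markers whatever their result, and, of the 8 most similar genes in each kidney ranking, the first 4 (the liver ranking is not reported here); Ivl, Lor, Flg, Dsp, Vim, Trp63, Hnf4a, Upk3a, Psca, Krt5, Krt15 and Sprr2a3 were added after their values were seen. Replicate numbers did not pair libraries and no library was a duplicate of another. All 18 lists (205 of 212 genes in the table) are reported by their counts.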

Additional observations from a re-analysis of the deposited data

Results flagged for a closer look

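The change from CBLB502 to cisplatin differed between kidney and liver for 3 of the list genes, Sfn, S100a10 and the galectin gene Lgals3, by edgeR's test of the difference itself over all genes (449 of 21570 called). The change was larger in kidney by 5.33 on the log2 scale for Sfn (SE 0.922, adjusted p = 0.00534), by 3.43 for S100a10 (SE 0.62, adjusted p = 0.00632) and by 3.43 for Lgals3 (SE 0.518, adjusted p = 0.00294). In a fit of only the CBLB502 and cisplatin libraries, Sfn kept its direction but was not called. It stayed called in the other settings tried. In kidney all 3 cisplatin libraries lay above all CBLB502 libraries for Sfn and S100a10.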

How the results depend on the processing

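The values below count genes called, of the 8 keratin and Sprr genes or of the list genes tested. The cause of a difference was not tested. Counts of the 8 genes stand here without the share of all genes in each setting, and nothing is read from them. Of the called differences of the 8 genes, 1 changed direction, Krt18 in kidney CBLB502 against control (0.82 on log2(FPKM + 1)). On that scale, 10 differences or interactions that were not called also changed sign, by at least their SE. When a library was left out, 1 did so. Differences that were not called changed sign with library sizes free of mitochondrial genes and copies: in kidney against control, Krt7 in cisplatin (-0.55) and the combination (-0.22) and Krt18 in the combination (-0.22), and in liver Krt18 in cisplatin against control (-0.1), Krt19 in CBLB502 (-0.26) and the combination (-0.83) against control, and Krt8 (-0.28) and Krt18 (-0.21) in the combination against CBLB502. With library sizes free of mitochondrial genes and copies, the 8 genes gave 3 calls in kidney cisplatin against control (5 in the report) and 4 in the combination against CBLB502 (7), the kidney interaction 14 list genes (22) and the difference between tissues 8 (3). Over all genes, kidney cisplatin against control went from 4900 higher and 3099 lower to 2019 and 7134. The kidney combination against CBLB502 went from 3021 higher and 1827 lower to 1503 and 4197. DESeq2 called 22 list genes (0) and 1 of the 8 (0) in the kidney combination against cisplatin, and 37 in the kidney interaction (22). In liver it called 2 of the 5 keratins in cisplatin against control (1), 0 in the combination against control (1), 2 in the combination against cisplatin (0) and 3 in cisplatin against CBLB502 (0), with 27 list genes in the combination against cisplatin (6) and 19 against CBLB502 (10). limma-voom called 1 of the 8 in kidney cisplatin against control, 14 list genes in the kidney interaction, and 15 and 17 list genes in the liver combination against cisplatin and against CBLB502. limma on log2(FPKM + 1) called 98 list genes in kidney CBLB502 against control (43), 99 list genes (65) and 5 of the 8 (3) in the combination against control and 93 in the interaction. In liver it called 2 keratins against control in each treated group, 52 list genes in CBLB502 against control (30), 16 in the combination against cisplatin and 50 in the interaction (24). Fitting only the groups compared called 4 of the 8 in kidney cisplatin against CBLB502 (7), 79 list genes in the kidney combination against CBLB502 (44), 1 keratin in liver CBLB502 against control (0), 0 and 35 list genes in the liver combination against cisplatin and CBLB502, and 1 in the difference between tissues. RLE scaling called 0 keratins in the liver combination against control and 1 in cisplatin against CBLB502, no filter beyond 1 count called 2 in liver cisplatin against control, and a fit of the 9 treated liver libraries, added after seeing the data, called 18 list genes in the combination against cisplatin.

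Leaving out 1 library at a time, kidney list genes called ranged from 67 to 98 in cisplatin against control, 25 to 39 in CBLB502 against control, 52 to 59 in the combination against control, 43 to 94 in cisplatin against CBLB502, 24 to 30 in the combination against CBLB502, 0 to 60 in the combination against cisplatin and 7 to 62 in the interaction. The 8 genes ranged in the same order of the first 6 from 3 to 5, 1 to 3, 1 to 3, 5 to 8, 3 to 6 and 0 to 5. In liver, list genes ranged from 44 to 60, 19 to 28, 38 to 48, 7 to 48, 4 to 6, 0 to 43 and 14 to 40 in that order, and keratins from 1 to 3, 0 to 1, 0 to 1, 0 to 3, 0 to 0 and 0 to 2. The difference between tissues ranged from 3 to 22. The highest values in comparisons with cisplatin came mostly without kidney cisplatin library 6 or liver cisplatin library 3, except the 8 calls of cisplatin against CBLB502 in kidney, which came without cisplatin library 4. The lowest count of list genes in kidney cisplatin against CBLB502 and the lowest kidney interaction came without CBLB502 library 4. Where a group kept 2 libraries, fewer samples entered the fit.

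The numbers did not pair the libraries: same-numbered libraries correlated at -0.169 to 0.176 in liver (5 of 18 pairs over 0.1) and -0.133 to 0.0705 in kidney (0 of 9). With the replicate number as a block, kidney cisplatin against CBLB502 called 60 list genes (63), the kidney combination against CBLB502 5 of the 8 (7), and liver cisplatin against control 49 list genes (52). At this depth, liver Krt7, Krt19, Krt20 and Sprr values rest on few counts.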
